A study of Mus musculus with 8 samples.

Results

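Cyclins, cyclin-dependent kinases (CDKs), CDK inhibitors and E2F factors were examined in mesenchyme of the posterior second heart field (pSHF), a source of cells for the atrial septum. The 40 genes were taken by name: every spot of the array, other than controls, whose gene name was one of the 40 was used. They were 40 of 27554 gene names on the array, with 125 spots and 71 probes. Of these, 54 probes of 37 genes were tested, because in 1 group or both each of the 4 arrays read them well above background. Ccna1, Cdkn2a and E2f4 had no tested probe. The series held 8 samples of E9.5 mouse pSHF, 4 heterozygous for a Tbx5 mutation (Tbx5-/+) and 4 wild-type, each a pool of RNA on 1 single-colour Agilent array. Embryo numbers 1, 5, 6 and 7 occur in both groups. In both groups the mothers had been given gonadotropins (human chorionic gonadotropin and that of pregnant mare serum) before mating, and the mice were of mixed background. The number of embryos in a pool was not given in the sources used here. The tissue was taken whole, so fewer cells of a type and less RNA per cell cannot be told apart.

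D-type and E-type cyclins activate CDK4, CDK6 and CDK2 in G1, and these kinases phosphorylate the pocket proteins Rb1, Rbl1 and Rbl2. The pocket proteins then release E2F factors, which switch on the genes of DNA replication. Later in the cycle cyclins A and B drive S phase and mitosis, Wee1 holds CDKs inactive by tyrosine phosphorylation and the Cdc25 phosphatases remove that mark. Inhibitors of the Cip/Kip family (Cdkn1a, Cdkn1b) and the INK4 family (Cdkn2a to Cdkn2d) restrain the kinases.

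Tbx5, the targeted gene, was measured first. On probe A_52_P523712 its normalised log2 value was 9.01, 9.73, 9.16 and 8.62 in Tbx5-/+ numbers 1, 5, 6 and 7 against 11.47, 11.56, 10.42 and 11.54 in wild-type, number by number. The groups did not overlap, and the difference was -2.12 (log2, SE 0.32, limma adjusted p = 0.0920, or 0.0335 with the embryo number as a block, exact two-sided permutation p = 0.0286, the smallest that 4 against 4 arrays can give). A second probe, A_51_P469338, differed by -0.15 with an exact permutation p of 0.743.

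Values throughout are log2 intensities after variance stabilization (VSN), and differences are Tbx5-/+ minus wild-type. The share of spots well above background was lower in Tbx5-/+ (48.6% ± 3.26, SD, n = 4) than in wild-type (57.6% ± 5.78, SD, n = 4; exact permutation p = 0.0571). Over the 20031 probes tested, the differences had a median of -0.19 under VSN and turned positive when arrays were scaled to their 75th percentile (0.095) or centred on their median (0.13). It also moved with the filter, to 0.039 over 41174 probes with no filter on dim probes and -0.42 over 11182 probes under the methods' filter. Changes of single genes are therefore read against that median. Of the 71 member probes, 47 to 55 were well above background on a Tbx5-/+ array and 55 to 62 on a wild-type array (exact permutation p = 0.0857). Marker genes of the dissected tissue were present: all 9 pSHF mesenchyme genes were tested, as were 7 of 7 cardiomyocyte, 6 of 6 foregut endoderm and 6 of 6 endothelial genes. Neural tube (4 of 6) and liver bud genes (3 of 5) were also found, with Sox1, Olig2, Ttr and Apoa1 not tested, and primitive erythrocyte genes were found too.

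Mean log2 levels of these lists differed between the groups in some cases. The array medians themselves lay at 9.47 to 9.83 in Tbx5-/+ and 9.89 to 10.06 in wild-type (exact permutation p = 0.0286). The list levels were not corrected for that shift. The pSHF list, which holds Tbx5, ranged from 9.89 to 10.91 in Tbx5-/+ and from 10.86 to 11.59 in wild-type. Of its 9 genes, 5 were lower at an unadjusted p under 0.05 (18.5% of all probes were) and 4 were higher, at a larger p. Foxf1a, Osr1 and Gata4, among the 5, were not well above background on all 4 Tbx5-/+ arrays and were tested through the wild-type group. The endothelial list lay at 10.02 to 10.66 against 10.78 to 10.99, and the foregut endoderm list at 10.10 to 10.37 against 10.52 to 10.65, without overlap. Relative to the median of all probes tested, their median differences were -0.46 and -0.17. The cardiomyocyte list overlapped (14.17 to 15.70 against 14.50 to 15.45), as did the neural tube (8.59 to 9.81 against 8.07 to 10.13), erythrocyte (12.59 to 15.15 against 12.65 to 14.87) and liver bud lists (8.03 to 11.22 against 8.80 to 11.09). The part of these lists in the member differences was not tested.

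No cyclin, CDK, inhibitor or E2F gene passed an adjusted p of 0.05. The call was made by limma over all 20031 probes, of which 0% passed. The smallest adjusted p of a member was 0.0996, for a Cdk8 probe well above background on 3 of 4 Tbx5-/+ arrays. The brighter Cdk8 probe had an adjusted p of 0.264. At an unadjusted p under 0.05 there were 13 of 54 member probes (24.1%), from 11 genes, against 21.9% of all probes tested. Of the 13, 12 were lower in Tbx5-/+ (18.5% of all probes were) and 1, Cdkn2d, was higher (3.37% of all probes were). Among the 12, those of Cdk2, Cdk8, E2f7, Cdc25c and Wee1 were tested through the wild-type group. With probes above background on all 8 arrays, 9 member probes reached that p, 7 lower and 2 higher. Of all 16761 such probes 21.0% did, and 80.0% of these were lower. SAM, programmed here after the test named in the study's methods, gave counts that depended on how false calls were averaged. With their mean number it called 0 of 34 member probes at a q under 0.05, where 3.94% of its 11174 probes were called (3.91% lower). Their median number is the convention of the samr package that the methods name. With it 10 of 34 were called (29.4%), against 26.6% of its probes (23.9% lower). The 10 came from Ccnd2, Ccnf, Cdc25a, Cdc25c, Cdk2, Cdk8, E2f1 and E2f7. Groups did not overlap for 3 member probes (5.56%), each lower, against 9.74% of all probes (8.99% lower). The probes of Cdk2 and Cdk8 among them were well above background on 3 of 4 Tbx5-/+ arrays and were tested through the wild-type group, so 1 probe, of Ccnd2, is left when all 8 arrays are required. With quantile normalization 4 member probes had no overlap and with centred arrays 6 had none, each higher. The share of all probes is not given for these scalings, so these counts are not read as a result about the members. The share of member probes at an unadjusted p under 0.05 lay close to that of all probes.

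Of the 54 member probes, 35 had a lower value in Tbx5-/+ (64.8%), against 65.4% of all probes. The median difference of the 54 member probes was -0.25, which is -0.064 relative to the median of all probes tested. By the brightest tested probe of each gene the median was -0.12, or 0.066 relative to all probes, the opposite sign. Of the 37 genes, 22 were lower and 15 higher, and 24 lay within 0.5 of the median of all probes. The differences ran from -1.20 for Cdc25a to 0.73 for Cdkn2d. Centring every array on its median left 13 probes at an unadjusted p under 0.05, 4 lower and 9 higher, where 22.9% of all probes were (6.63% lower and 16.3% higher), and 75th percentile scaling gave the same split. Among all probes below that p, lower values made up 84.6% with VSN, 36.0% with percentile scaling and 29.0% with centred arrays. Across VSN, percentile, quantile and centred scaling, 12 of the 37 genes were lower each time, 15 were higher each time and 10 changed sign.

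**Figure D1:**
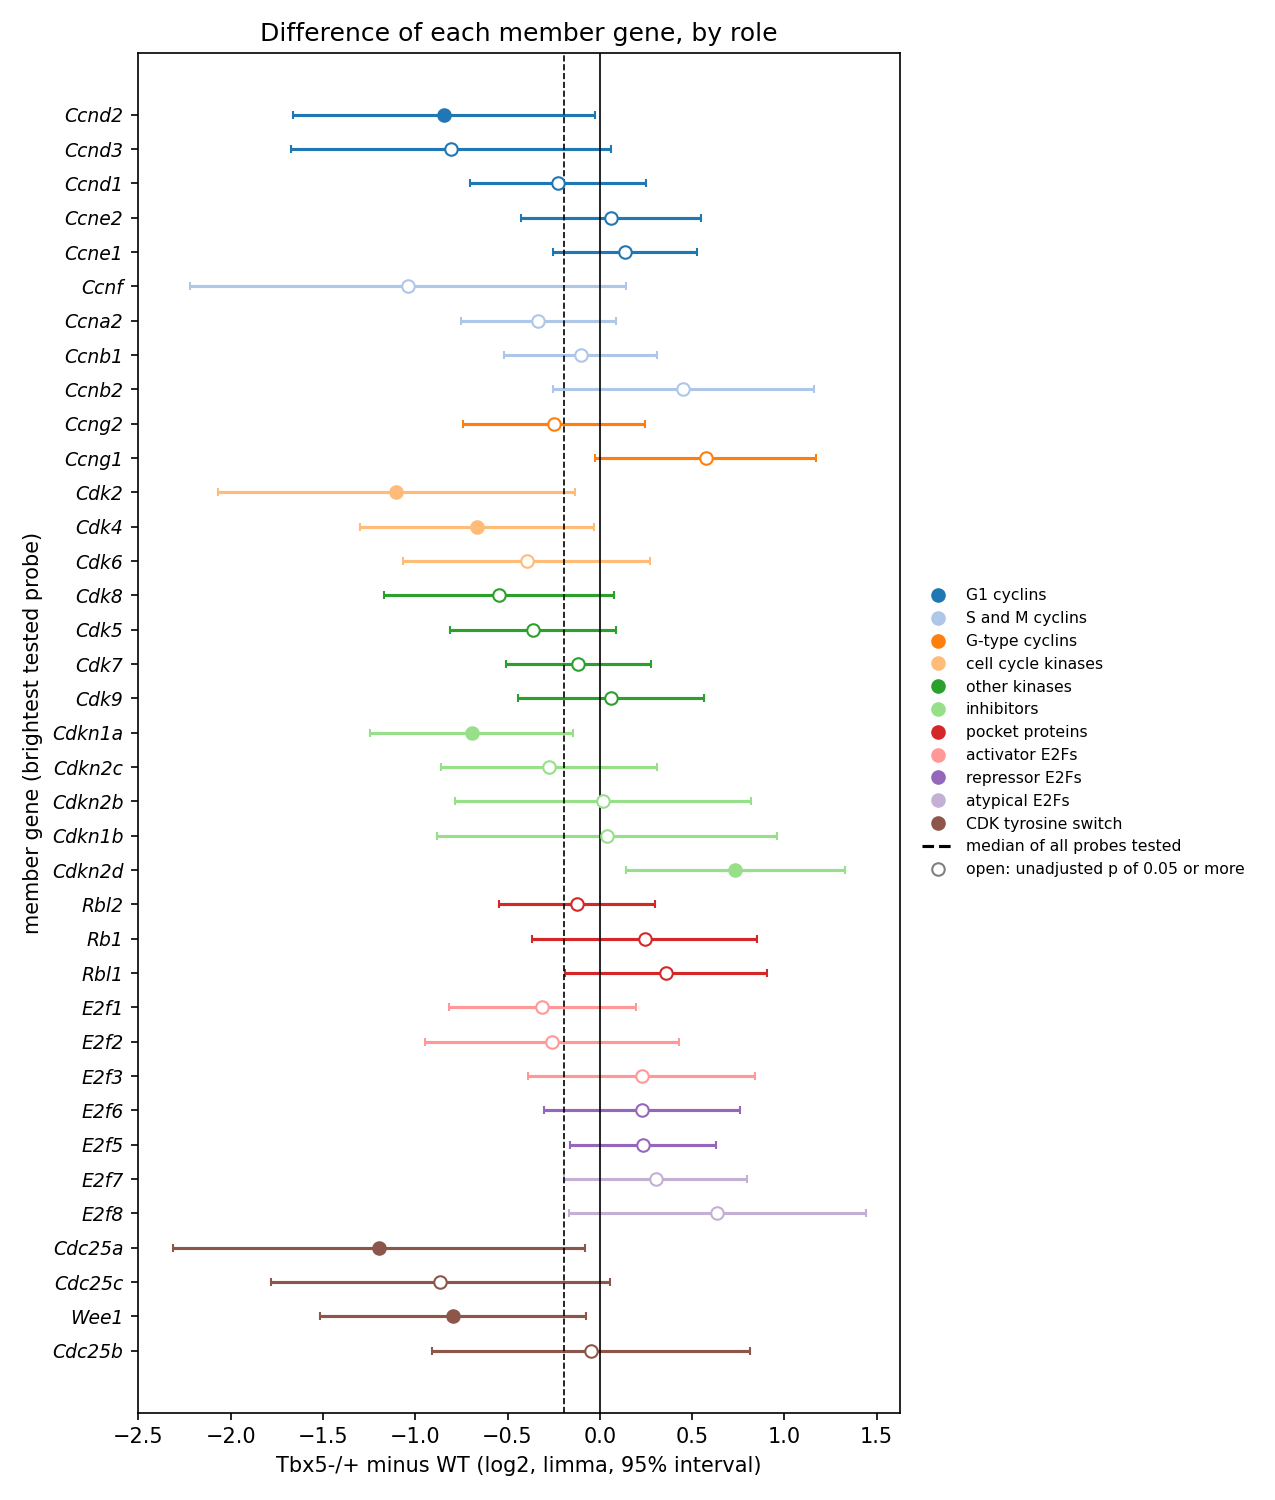
Difference of each of the 37 member genes (Tbx5-/+ minus wild-type, log2, brightest tested probe) with its 95% interval from limma, coloured by role. Filled points had an unadjusted p under 0.05, and the dashed line is the median of all probes tested (-0.19). Cdk2, Cdk4, Cdk6, Cdc25a, Cdc25c and Wee1 lie left of it, while both atypical E2Fs and Cdkn2d lie to the right.

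The differences of the members were also taken within each of the 4 embryo numbers. In number 1 there were 30 of 37 genes lower, of which 3 lay below -0.5, and 0 genes above 0.5. Of all probes, 83.2% were lower in number 1, 23.5% lay below -0.5 and 3.36% above 0.5. In numbers 5, 6 and 7, 5, 12 and 14 genes lay below -0.5 and 7, 6 and 7 above 0.5. Of all probes, 21.4%, 37.6% and 32.2% lay below -0.5 in these numbers and 13.2%, 18.3% and 14.9% above 0.5. Lower in all 4 numbers were 18 genes (48.6%), where 36.3% of all probes were. E2f5 was higher in all 4 numbers (3.81% of all probes were). Lower in number 1 and higher in the other three were 10 genes (27.0%; 22.1% of all probes): Ccnb2, Ccne1, Ccne2, Ccng1, Cdkn2d, E2f3, E2f6, E2f7, E2f8 and Rbl1.

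**Figure D2:**
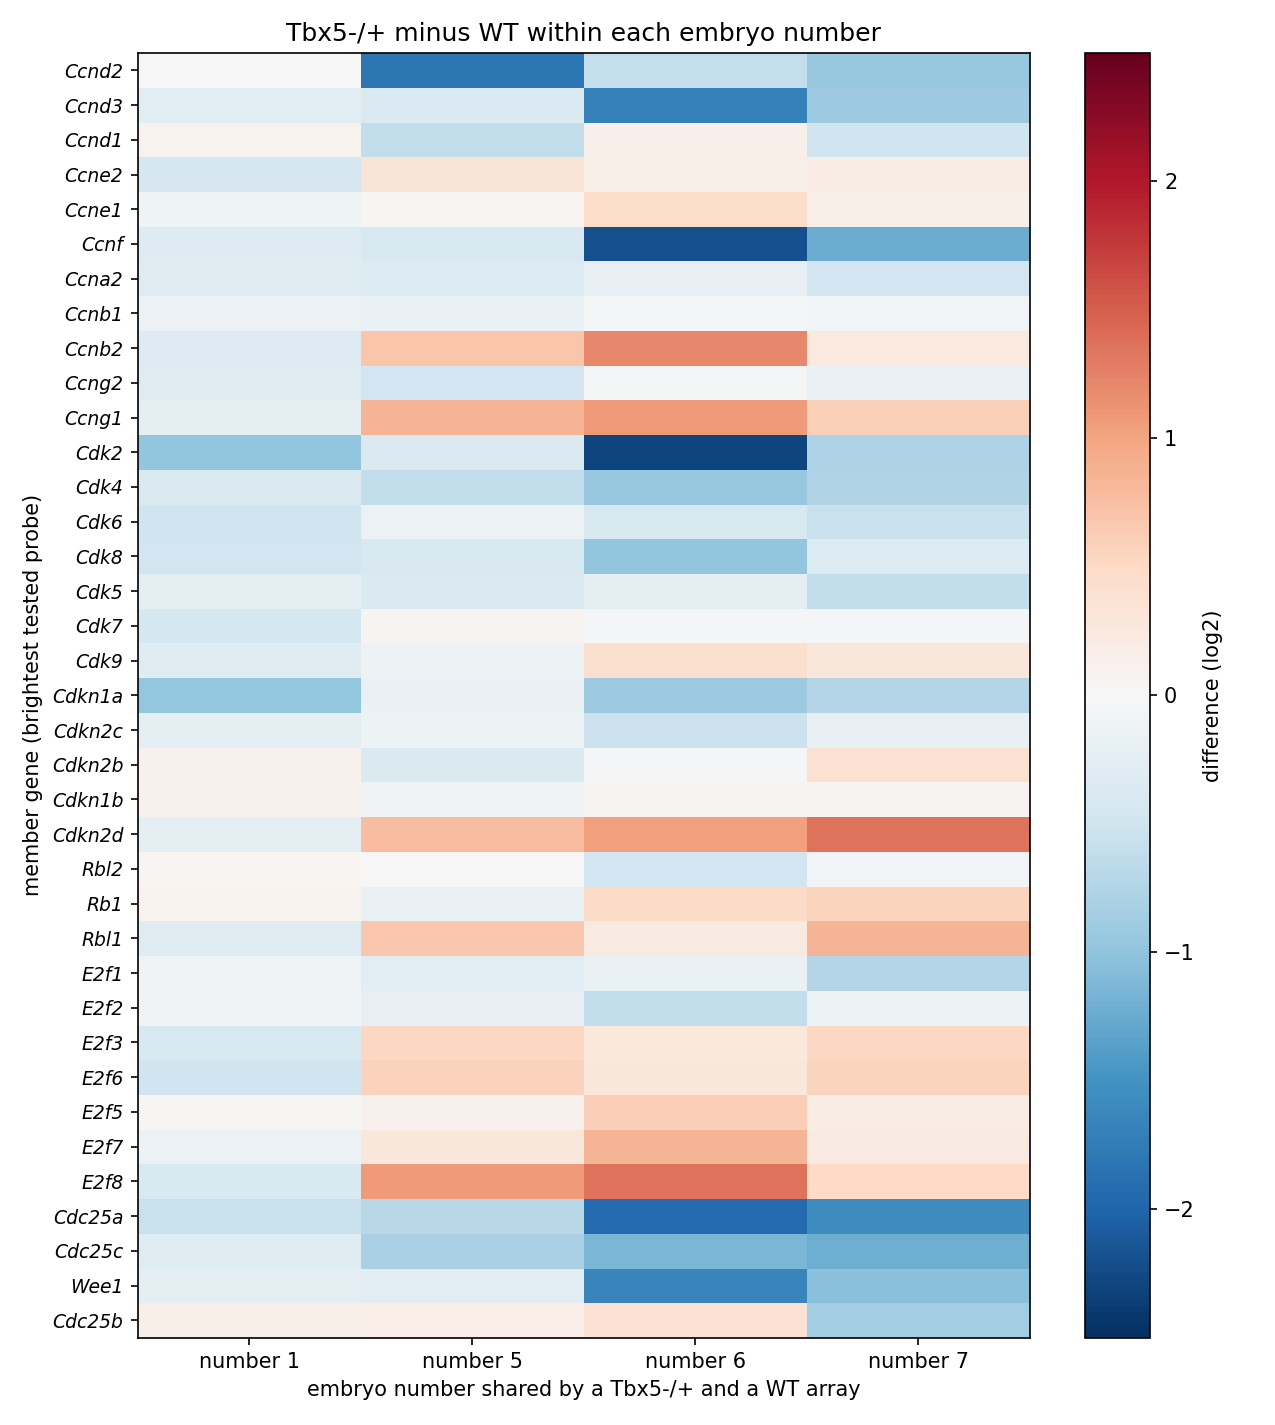
Tbx5-/+ minus wild-type (log2, colour scale) for the brightest tested probe of each member gene within each shared embryo number. In number 1 Cdk2 and Cdkn1a have the lowest values (-0.99 and -0.96), and numbers 5 to 7 carry the blue rows of Cdc25a, Cdc25c and Cdk2 and the red rows of Cdkn2d, Ccng1 and E2f8.

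How many members were called depended on Tbx5-/+ 1 and on the block. Without it, 12 of 54 member probes from 10 genes passed an adjusted p of 0.05 (22.2%), against 19.2% of all probes: Ccnd2, Cdc25a, Cdc25c, Cdk8, E2f1, Wee1 and a dimmer probe of E2f3 lower, and Ccng1, Cdkn2d and Rbl1 higher. With the embryo number as a block, 6 member probes from 5 genes passed (11.1%; 11.1% of all probes did): Ccnd2, Cdc25a, Cdc25c, Cdk8 and E2f1, each lower. The number 1 arrays of both genotypes also had the lowest mean log2 level of the erythrocyte list (12.59 and 12.65, against 14.05 to 15.15 on the others), and its part was not tested. The factor by which VSN multiplied the signal was 0.95 on Tbx5-/+ 1 and 0.88 to 1.04 in wild-type. On Tbx5-/+ 5, 6 and 7 it was 1.68, 2.56 and 1.85, and its part was not tested either. The median gap between 5' and 3' probes of the same transcript was 0.28, -0.13, -0.42 and -0.27 in Tbx5-/+ numbers 1, 5, 6 and 7, and 0.34, 0.10, 0.0010 and 0.10 in wild-type. The group means differed by -0.27 (exact permutation p = 0.171), and its part in the member differences was not tested.

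Promoter sequences of 30 of the 40 members were found in RefSeq (GRCm38.p6, 250 bases before to 50 after the start site). Ccna2, Ccnd1, Ccnd2, Ccne2, Cdk5, E2f4, E2f5, Rb1, Cdc25c and Wee1 had no entry there. Letters of the E2F site (TTTCCCGC, TTTGGCGC, TTTCGCGC or TTTGCCGC, both strands) were present in 7 of the 30 (23.3%) and in 2.6% of 27025 genes. The members were Cdc25a, Cdk2, Cdkn2a, E2f2, E2f3, E2f7 and Rbl1. The 5 stretches below are shown because their genes appear on both sides of 0: the differences of Cdc25a and Cdk2 were negative, that of Rbl1 was positive, and those of E2f3 and E2f7 had either sign on different probes. Each is 100 bases long, written 5′ to 3′ on the strand of the gene, with the E2F letters in capitals.
Cdc25a, chr9:109875466-109875565, plus strand: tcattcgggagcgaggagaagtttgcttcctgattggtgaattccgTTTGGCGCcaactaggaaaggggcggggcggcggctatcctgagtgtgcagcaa
Cdk2, chr10:128705138-128705237, minus strand: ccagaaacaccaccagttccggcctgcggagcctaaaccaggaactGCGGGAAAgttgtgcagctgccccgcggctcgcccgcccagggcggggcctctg
E2f7, chr10:110745195-110745294, plus strand: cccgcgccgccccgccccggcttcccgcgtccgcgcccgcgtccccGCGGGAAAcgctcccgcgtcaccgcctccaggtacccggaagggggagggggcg
E2f3, chr13:29986064-29986163, minus strand: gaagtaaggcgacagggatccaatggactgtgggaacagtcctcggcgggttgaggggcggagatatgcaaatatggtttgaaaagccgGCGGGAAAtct
Rbl1, chr2:157204535-157204634, minus strand: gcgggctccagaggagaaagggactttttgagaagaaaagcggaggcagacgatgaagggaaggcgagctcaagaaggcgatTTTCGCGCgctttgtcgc

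The letters lay at -67 to -60 in Cdc25a, -140 to -133 in Cdk2, -198 to -191 in E2f7, -11 to -4 in E2f3 and -18 to -11 in Rbl1, counted from the start site. Letters of the T-box site bound by Tbx5 and its relatives (AGGTGTGA, both strands) were present in 2 of 30 members, Cdkn1a and E2f2 (6.67%; 1.48% of all genes). The stretch of E2f2 is shown because it holds such letters upstream of a start site (the second of its listed starts), from -128 to -121, while those of Cdkn1a began at 14 after a start.
E2f2, chr4:136180608-136180707, plus strand: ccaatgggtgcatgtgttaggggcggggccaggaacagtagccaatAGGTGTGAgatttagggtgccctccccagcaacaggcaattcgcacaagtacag

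The E-box CACGTG was present in 6 members (20%; 8.09% of all genes), CCAAT in 18 (60%; 41.1%), the CHR letters TTTGAA in 7 (23.3%; 20.2%) and the GLI letters GACCACCCA in 0 (0%; 0.289%). Cdk4 held CACGTG 4 times, and 6 genes in all held it at least 4 times. Its 182 bases before the start site are shown with these letters in capitals.
Cdk4, chr10:127063353-127063534, plus strand: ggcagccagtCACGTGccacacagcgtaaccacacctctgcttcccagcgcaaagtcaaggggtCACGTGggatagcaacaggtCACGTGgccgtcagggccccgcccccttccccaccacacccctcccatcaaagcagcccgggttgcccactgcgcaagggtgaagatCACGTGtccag

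G1 cyclins. Ccnd2, the D-type cyclin that partners CDK4 and CDK6, had 3 tested probes (mm9 chromosome 6), each with a negative difference. Probe A_51_P433228 read 14.66, 13.59, 13.71 and 14.55 in Tbx5-/+ 1, 5, 6 and 7 and 14.74, 15.13, 15.08 and 15.45 in wild-type. Every Tbx5-/+ value lay below every wild-type value, with number 1 of each group nearest to the other group. Its difference was -0.97 (SE 0.29, adjusted p = 0.146). Probe A_52_P53906 differed by -1.03 (SE 0.30, adjusted p = 0.144; 0.0445 with the embryo number as a block), a 2.04-fold lower value. The brightest, A_52_P514391 (127079694 to 127079753), differed by -0.84 (SE 0.37, adjusted p = 0.221), with Tbx5-/+ 5 at 13.75 and the other three at 15.17 to 15.27. The 3 probes thus agreed in sign, and within array label 1 and 2 the difference of A_51_P433228 was -0.81 and -1.13.

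Ccnd1, the most widely studied D-type cyclin, differed little. Its 10 spots per array varied with an SD of 0.019 to 0.047 within an array. Values were 11.96, 11.97, 12.02 and 11.64 in Tbx5-/+ and 11.88, 12.59, 11.89 and 12.15 in wild-type. The groups overlapped and the difference was -0.23 (SE 0.21, 95% interval -0.70 to 0.25, adjusted p = 0.519), with a positive sign under percentile (0.14) and centred scaling (0.095). Ccnd3 differed by -0.81 (SE 0.39, adjusted p = 0.246), from -0.32 within array label 1 to -1.29 within array label 2. The E-type cyclins activate CDK2 at the start of S phase. The brighter Ccne1 probe read 14.69, 14.82, 14.81 and 14.80 in Tbx5-/+ and 14.79, 14.77, 14.36 and 14.65 in wild-type. It differed by 0.14 (SE 0.18, 95% interval -0.25 to 0.53, adjusted p = 0.643), which is 0.33 relative to all probes, and by 0.50 under percentile and 0.46 under centred scaling. Its dimmer probe A_52_P796682 differed by -0.16 and by 0.18 and 0.16 under those scalings. The Ccne2 probes differed by 0.060 and 0.081 under VSN and by 0.38 and 0.40 with centred arrays.

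S and M cyclins. Ccna2, the cyclin A of dividing cells, read 13.54, 13.63, 13.27 and 13.37 in Tbx5-/+ and 13.85, 13.97, 13.47 and 13.86 in wild-type. It was lower in each of the 4 embryo numbers, with overlap between the groups, and differed by -0.33 (SE 0.19, adjusted p = 0.301); under percentile scaling the sign turned (0.047). Ccnb1, the mitotic cyclin B, had 3 probes at -0.10, 0.075 and -0.13. Its brightest read 12.54, 12.46, 12.18 and 12.35 in Tbx5-/+ and 12.69, 12.62, 12.22 and 12.42 in wild-type (SE 0.19, 95% interval -0.52 to 0.31, adjusted p = 0.745), and its sign was positive under the percentile, quantile and centred scalings. Ccnb2 differed by 0.45 (adjusted p = 0.388) and Ccnf, an F-box protein that takes its name from the cyclin fold, by -1.04 (SE 0.53, adjusted p = 0.263). The Ccnf value of Tbx5-/+ 6, at 9.60, lay below the other 3 of its group (11.11 to 12.42). Ccna1, mainly a germ-line cyclin, passed the background mark on 0 Tbx5-/+ and 3 wild-type arrays and was not tested.

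G-type cyclins. Ccng1, a known p53 target, had 2 probes at 0.57 (SE 0.27, adjusted p = 0.238) and 0.58 (SE 0.26, adjusted p = 0.228). The brighter read 9.94, 10.98, 11.18 and 10.55 in Tbx5-/+ and 10.16, 10.13, 10.11 and 9.95 in wild-type. Numbers 5, 6 and 7 of Tbx5-/+ lay above every wild-type value and number 1 below them. Ccng2 differed by -0.25 (adjusted p = 0.493).

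Cell cycle kinases. The 3 kinases of G1 and S phase had values below wild-type under each of the 4 scalings, with a median difference of -0.67, or -0.48 relative to all probes, under VSN. Those of Cdk4 and Cdk6 were smaller under percentile (-0.29 and -0.029) and centred scaling (-0.34 and -0.073), while Cdk2 gave -1.38 and -0.78. Cdk2, the partner of cyclins E and A, was dim: on probe A_52_P651298 (chromosome 10, 128140817 to 128140876, mm9) it was well above background on 3 of 4 Tbx5-/+ arrays. It read 7.52, 7.44, 5.45 and 7.12 in Tbx5-/+ and 8.51, 7.79, 7.75 and 7.89 in wild-type. The groups did not overlap, although Tbx5-/+ 6 stood apart from the other 3. The difference was -1.10 (SE 0.43, adjusted p = 0.205), and was -0.67 and -1.54 within array labels 1 and 2. Cdk4, the G1 kinase whose promoter holds 4 E-boxes, read 13.81, 13.39, 12.54 and 13.24 in Tbx5-/+ and 14.17, 14.01, 13.48 and 14.00 in wild-type. It was lower in each embryo number, with differences from -0.355 in number 1 to -0.938 in number 6, and its groups overlapped only through Tbx5-/+ 1 and wild-type 6. The difference was -0.67 (SE 0.28, adjusted p = 0.217). Cdk6, which shares the D cyclins with Cdk4, read 11.68, 12.86, 12.52 and 12.53 in Tbx5-/+ and 12.17, 13.01, 12.91 and 13.08 in wild-type. Its difference was -0.40 (SE 0.30, 95% interval -1.06 to 0.27, adjusted p = 0.424), and a dimmer probe, well above background on 1 of 4 Tbx5-/+ arrays, gave -0.50.

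Other kinases. Cdk8, the kinase of the Mediator module that controls transcription, held the smallest p of the members. Probe A_52_P504068 (chromosome 5, 147043316 to 147043375, mm9) was well above background on 3 of 4 Tbx5-/+ arrays and on all 4 of wild-type. It read 7.81, 7.14, 7.002 and 6.82 in Tbx5-/+ and 8.38, 8.01, 8.06 and 8.36 in wild-type. The highest Tbx5-/+ value (number 1) was under the lowest wild-type value (number 5). The difference was -1.01 (SE 0.24, adjusted p = 0.0996; 0.0355 with the embryo number as a block), and within array labels 1 and 2 it was -0.72 and -1.30. A brighter probe 1692 bases further 3' in the transcript, A_51_P250963, read 11.05, 10.68, 9.84 and 10.63 against 11.53, 11.05, 10.83 and 10.97 and differed by -0.55 (SE 0.28, adjusted p = 0.264). Over the array, the 5' probe of such a pair had the lower difference in 69.8% of 2583 pairs, with a median gap of -0.28. Cdk5, active mainly in neurons, differed by -0.36, Cdk7, the CDK-activating kinase, by -0.12, and Cdk9, the elongation kinase, by 0.062. Their adjusted p-values ran from 0.292 to 0.881.

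**Figure D3:**
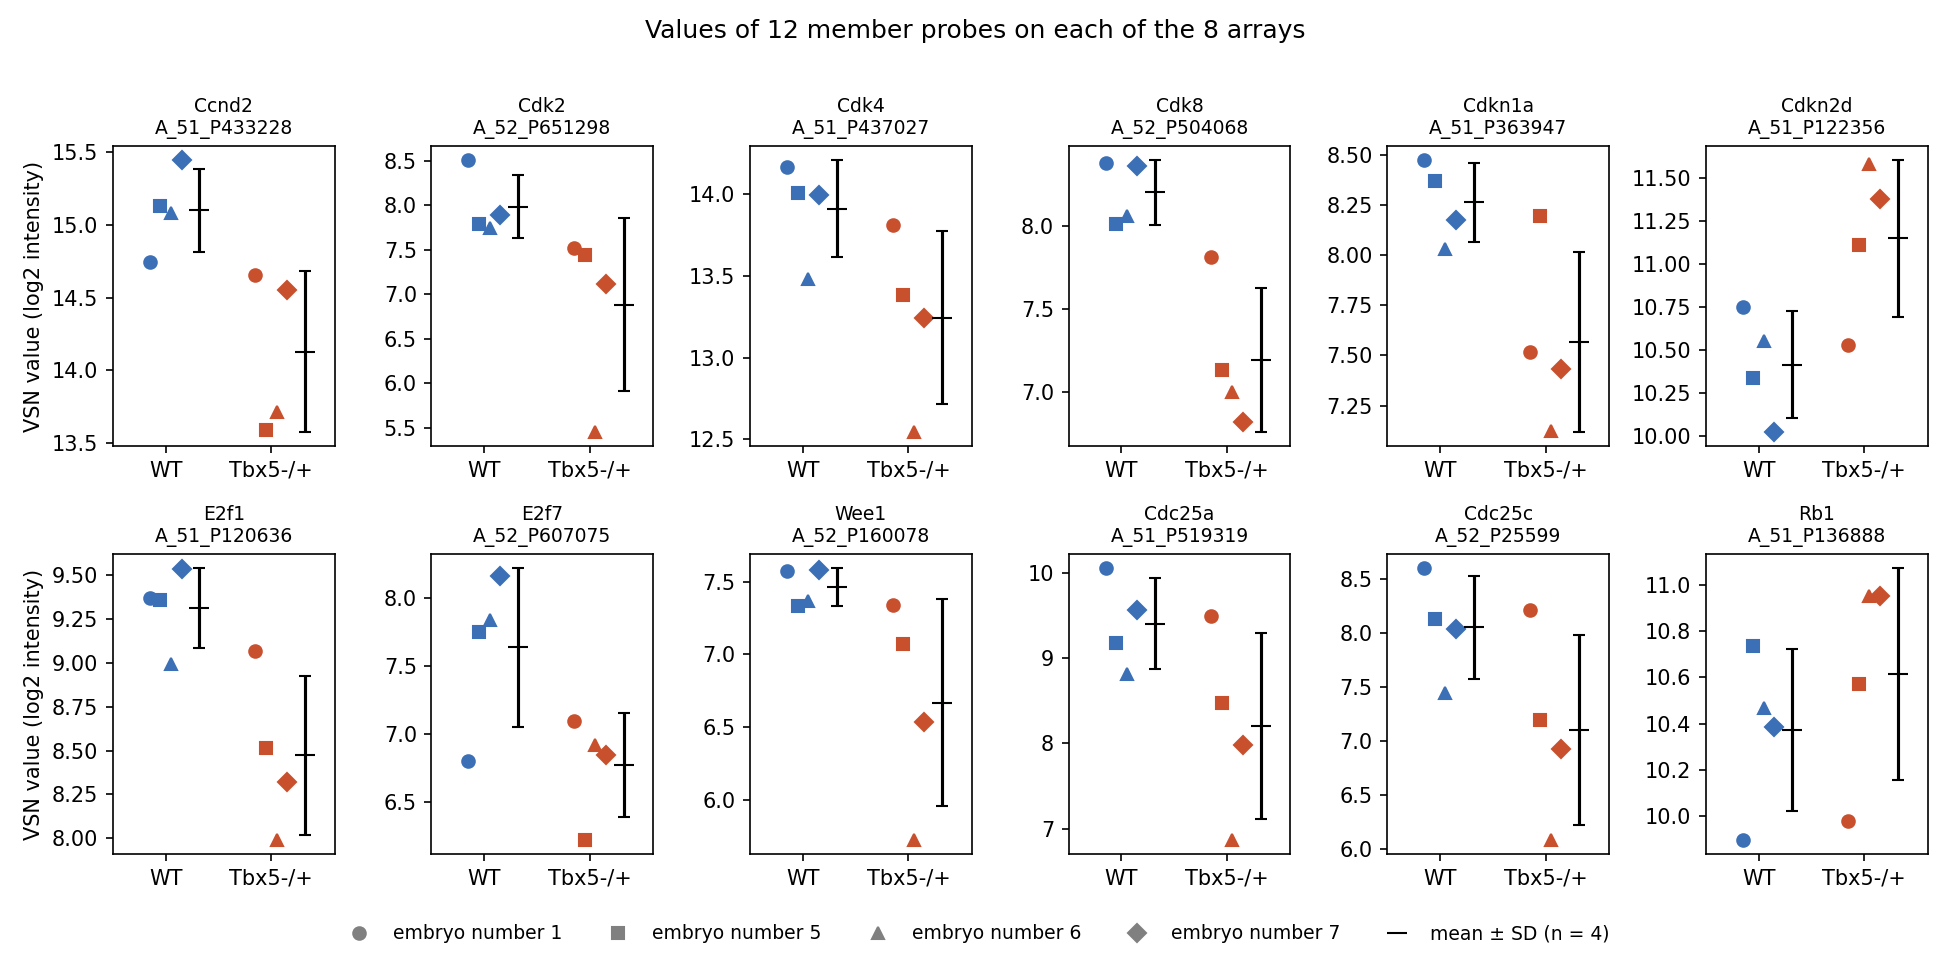
VSN log2 values of 12 member probes on each array, in wild-type (blue) and Tbx5-/+ (orange), with the mean ± SD of 4 arrays per group in black and embryo number given by the marker. The values of Cdk2, Cdk8 and Ccnd2 do not overlap between groups, and Cdkn2d shows Tbx5-/+ 1 (10.53) among the wild-type values.

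Inhibitors. Cdkn1a (p21), a p53 target that blocks CDKs, was measured on 10 spots per array with a within-array SD of 0.029 to 0.23. It read 7.52, 8.19, 7.12 and 7.43 in Tbx5-/+ and 8.47, 8.37, 8.03 and 8.17 in wild-type. Tbx5-/+ 5 lay among the wild-type values and the other 3 below them. The difference was -0.69 (SE 0.25, adjusted p = 0.190), and it was lower within all 4 numbers. Cdkn2d (p19, an INK4 inhibitor of CDK4 and CDK6) had the 1 positive difference among members at an unadjusted p under 0.05. It read 10.53, 11.11, 11.58 and 11.38 in Tbx5-/+ and 10.75, 10.33, 10.55 and 10.02 in wild-type. Tbx5-/+ 5, 6 and 7 lay above all 4 wild-type values. The difference was 0.73 (SE 0.27, adjusted p = 0.194; 0.0270 without Tbx5-/+ 1) and 0.28 and 1.19 within array labels 1 and 2. It stayed positive under percentile (1.08), quantile (0.92) and centred scaling (1.06). Cdkn1b (p27) read 9.57, 9.36, 10.68 and 10.70 in Tbx5-/+ and 9.47, 9.46, 10.61 and 10.63 in wild-type. Numbers 1 and 5 (array label 1) were low and numbers 6 and 7 (array label 2) high in both groups, with a difference of 0.037 (SE 0.41, 95% interval -0.88 to 0.96, adjusted p = 0.964). Its other 2 probes were well above background on 0 arrays. Cdkn2b differed by 0.017 and the 2 Cdkn2c probes by -0.28 and -0.36. Cdkn2a (p16 and p19Arf) was well above background on 0 of 8 arrays in 10 spots each.

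Pocket proteins. Rb1, the retinoblastoma protein, read 9.98, 10.57, 10.95 and 10.95 in Tbx5-/+ and 9.90, 10.74, 10.47 and 10.39 in wild-type, from 10 spots per array. The difference was 0.24 (SE 0.27, 95% interval -0.37 to 0.85, adjusted p = 0.596). Rbl1 (p107) differed by 0.36 (adjusted p = 0.375) and, without Tbx5-/+ 1, by 0.58 (adjusted p = 0.0481). Rbl2 (p130), well above background on 3 of 4 Tbx5-/+ arrays, differed by -0.12 (adjusted p = 0.697).

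E2F factors. E2f1, the activator that is itself a classic E2F target, differed between its probes in size. The 10-spot probe A_51_P120636 (chromosome 2, 154385742 to 154385801, mm9) read 9.07, 8.52, 7.99 and 8.32 in Tbx5-/+ and 9.37, 9.36, 8.99 and 9.53 in wild-type. Only Tbx5-/+ 1 reached the wild-type range, of which the lowest was number 6. The difference was -0.84 (SE 0.25, adjusted p = 0.147; 0.0423 with the embryo number as a block). The brighter probe A_52_P587611 (154386004 to 154386063) read 10.71, 10.42, 10.05 and 10.09 against 10.80, 10.69, 10.21 and 10.82 and differed by -0.31 (SE 0.23, adjusted p = 0.407), with the sign turned under percentile and centred scaling. E2f2 differed by -0.26 (adjusted p = 0.616). E2f3 had 3 tested probes, at 0.23 for the brightest and -0.36 and -0.42 for the others.

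The repressor and atypical E2Fs, which hold E2F genes off, had positive differences on their brightest probes. E2f5 differed by 0.23 and 0.13 on its 2 probes and E2f6 by 0.23, with adjusted p-values of 0.426 to 0.708. Of the atypical pair, which act without a DP partner, E2f8 differed by 0.64 (SE 0.36, adjusted p of 0.30) and the brighter E2f7 probe by 0.30 (SE 0.22, adjusted p = 0.410). That probe read 11.72, 11.79, 12.53 and 11.85 in Tbx5-/+ and 11.87, 11.51, 11.68 and 11.63 in wild-type. The brightest probes of the 4 genes had positive differences under each of the 4 scalings. The dimmer E2f7 probe A_52_P607075, well above background on 3 of 4 Tbx5-/+ arrays, differed in the opposite direction. It read 7.10, 6.22, 6.92 and 6.85 in Tbx5-/+ and 6.80, 7.75, 7.84 and 8.16 in wild-type, with a difference of -0.87 (SE 0.31, adjusted p = 0.194). E2f4, a repressor, passed the background mark on 0 Tbx5-/+ and 2 wild-type arrays, at 5.66 to 6.64 in Tbx5-/+ and 5.90 to 6.31 in wild-type.

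CDK tyrosine switch. Of these 4 genes, Cdc25a, Cdc25c and Wee1 were lower under each scaling, and Cdc25b turned sign. Cdc25a, the phosphatase that activates CDK2 at the start of S phase, read 9.50, 8.48, 6.86 and 7.98 in Tbx5-/+ and 10.06, 9.17, 8.81 and 9.56 in wild-type. It was lower in each embryo number, from -0.56 in number 1 to -1.95 in number 6. The difference was -1.20 (SE 0.50, adjusted p = 0.215; 0.0382 with the embryo number as a block), and was -0.63 and -1.76 within array labels 1 and 2. Cdc25c, which acts at mitosis, had 2 probes. The brighter read 10.23, 9.08, 8.23 and 8.72 in Tbx5-/+ and 10.53, 9.88, 9.36 and 9.93 in wild-type and differed by -0.86 (SE 0.41, adjusted p = 0.244; 0.0423 with the embryo number as a block). The dimmer, well above background on 3 of 4 Tbx5-/+ arrays, differed by -0.95 (SE 0.42, adjusted p = 0.225; 0.0367 with that block). Cdc25b gave -0.048 on its brightest probe and -0.81 on another. Wee1, the kinase that opposes the phosphatases, was well above background on 3 of 4 Tbx5-/+ arrays. It read 7.34, 7.07, 5.72 and 6.54 in Tbx5-/+ and 7.57, 7.33, 7.37 and 7.58 in wild-type. Tbx5-/+ 6 was the lowest, and Tbx5-/+ 1 was the array of its group that reached the wild-type range. The difference was -0.80 (SE 0.32, adjusted p = 0.208), and within array labels 1 and 2 it was -0.25 and -1.35.

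Among the 12 lower member probes at an unadjusted p under 0.05, Tbx5-/+ 6 was the lowest array of its group for 7 and Tbx5-/+ 1 the highest for 9. Differences within array label 2 (numbers 6 and 7) were larger than within array label 1 for most named members, which was not tested.

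**Figure D4:**
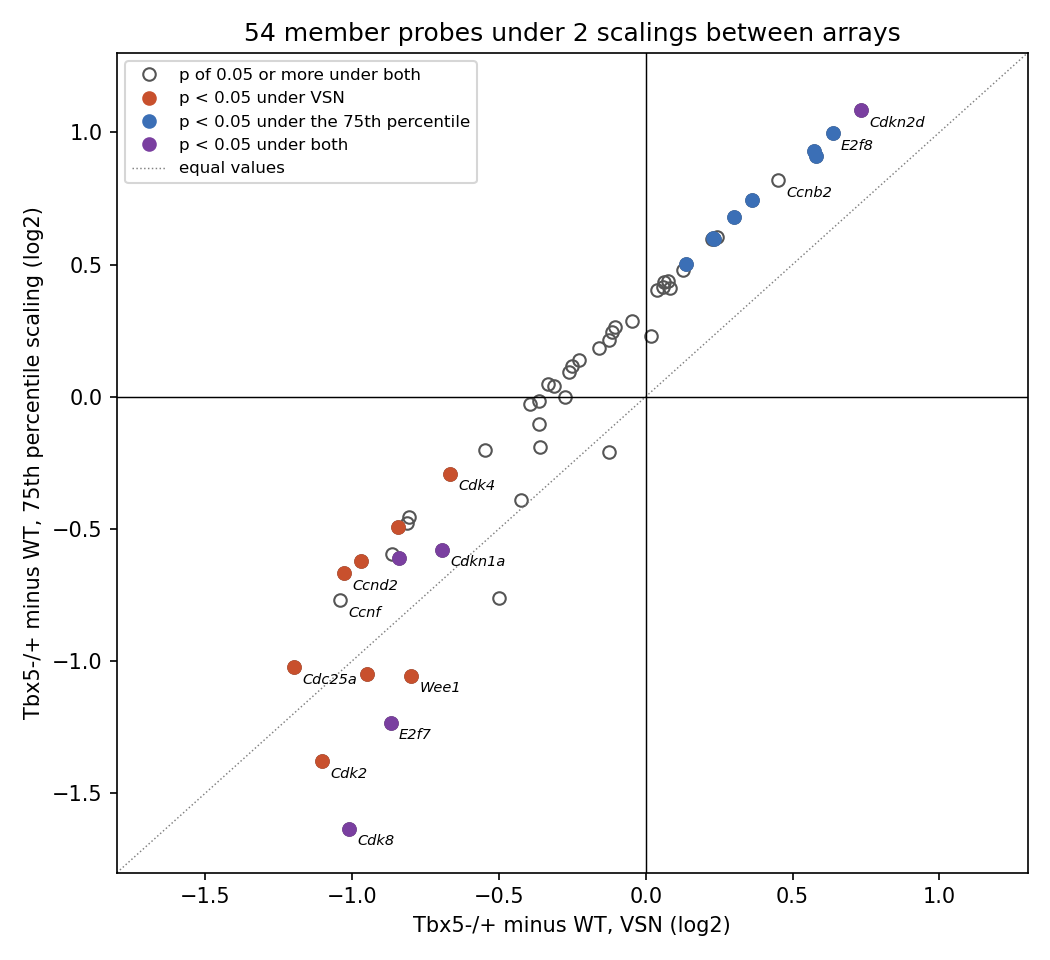
Tbx5-/+ minus wild-type (log2) of the 54 member probes under VSN (horizontal) and after scaling each array to its 75th percentile (vertical). Most points lie above the dotted line of equal values, 10 probes changed sign, and the probes at an unadjusted p under 0.05 went from 12 lower and 1 higher to 4 lower and 9 higher.

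Other genes of the cell cycle were taken from a list of 48 genes. Of its 47 tested genes, 29 were lower and 18 higher, with a median of -0.20 (-0.011 relative to all probes). At an unadjusted p under 0.05 there were 11 lower and 0 higher, 23.4% of the tested genes against 21.9% of all probes (18.5% lower), and 0 passed after adjustment. With centred arrays there were 5 lower and 11 higher, where 6.63% of all probes were lower and 16.3% higher. The 5 smallest p-values belonged to Tfdp2, the DP partner of E2Fs (-1.91, SE 0.36, adjusted p = 0.0920; 0.0335 with the embryo number as a block), Fbxw7, which marks cyclin E for degradation (-1.35, SE 0.35, adjusted p = 0.113; 0.0355 with that block), Ttk, a spindle checkpoint kinase (-0.66, SE 0.19, adjusted p = 0.142; 0.0462 with that block), Cdkn1c, the p57 inhibitor (-1.10, SE 0.34, adjusted p = 0.153; 0.0402 with that block), and Ccnt1, the cyclin partner of Cdk9 (-0.98, SE 0.31, adjusted p = 0.164). For Tfdp2 the 4 Tbx5-/+ values (7.79 to 9.36) lay below the wild-type values (9.65 to 10.71).

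The p53 pathway was examined beside the members because Cdkn1a and Ccng1 are among its targets. Of 21 tested genes of a list of 22, 11 were lower and 10 higher, and 4 reached an unadjusted p under 0.05 (19%), all higher, where 3.37% of all probes were. With centred arrays 5 of the 21 (23.8%) were higher, where 16.3% of all probes were. The 4 under VSN were Pmaip1 (1.07, SE 0.31, adjusted p = 0.135; 0.0486 with the embryo number as a block), Ddit4 (0.85, SE 0.27, adjusted p = 0.162), Bbc3 (0.45, SE 0.18, adjusted p = 0.209) and Ei24 (0.72, SE 0.30, adjusted p = 0.214). Pmaip1 and Bbc3 encode BH3-only proteins that promote apoptosis. The count was 2 without Tbx5-/+ 6, wild-type 1, wild-type 5 or wild-type 7 and 9 without Tbx5-/+ 1. The share of all probes at that p moved too, up without Tbx5-/+ 1 and down without wild-type 7 (both shares are in the last section).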

How the data were processed

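RNA of 8 pools of E9.5 pSHF was measured on single-colour arrays. The intensity values deposited by the authors came from Agilent Feature Extraction 10.5.1.1 with quality marks per spot, and a deposited table held log2 values that the authors normalised by VSN. The number of arrays limits the precision. Here each spot's mean signal was reduced by its median local background, 1115 outlier spots were left out and repeated spots averaged (245 probes). VSN was programmed in R 4.3.3, and its values correlated with the deposited log2 values at r of at least 0.9999 over probes. Probes were compared with limma 3.58.1 (lmFit, eBayes, two-sided, Benjamini-Hochberg over 20031 probes); SAM (70 assignments) was also programmed. Unadjusted p-values are given as under 0.05 or not. P-values measure the spread between the pools. A gene's brightest tested probe represented it, and positions are mm9 per the file headers.

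The embryo numbers are in the labels. Deviations from the group means of same-numbered arrays correlated at 0.438, 0.400, 0.593 and 0.137 for numbers 1, 5, 6 and 7. The highest correlation of each Tbx5-/+ array with a wild-type array of another number was -0.018, 0.074, -0.089 and 0.371, so number 7 matched another number better than its own. Every same-number value was above 0.1, and the number was used as a block as an alternative. Named in full were members with a probe at an unadjusted p under 0.05 or without overlap (at most 16) and a fixed group, Ccnd1, Ccnd2, Ccne1, Ccna2, Ccnb1, Cdk2, Cdk4, Cdk6, Cdkn1a, Cdkn1b, E2f1, E2f4, Rb1 and Wee1, and list genes at an unadjusted p under 0.05, at most 5 per list. The members and lists were chosen with earlier results of these data known, and the details given on Ccng1, Ccnf, E2f5, E2f8, Rbl1, Ccnd3 and Cdc25b were chosen after their values were seen. Alternatives were other scalings, filters, tests, blocks and left-out arrays; tests were checked on simulated data.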

Additional observations from a re-analysis of the deposited data

Results flagged for a closer look

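Among 46 groups of 4 arrays over the named member probes, 4 held 1 array apart from the other three by Dixon's ratio at its 95% critical value; chance flags about 1 in 20 groups. Tbx5-/+ 7 was the lowest of its group for Ccnd1 (A_51_P262766, 11.64 against a next value of 11.96, ratio 0.833). Tbx5-/+ 5 was the lowest for the brightest Ccnd2 probe (A_52_P514391, 13.75 against 15.17, ratio 0.933), and the other 2 Ccnd2 probes were not set apart in this way. Tbx5-/+ 1 was the lowest for Ccne1 (A_51_P408946, 14.69 against 14.80, ratio 0.851), and Tbx5-/+ 6 the highest for the brighter E2f7 probe (A_52_P374997, 12.53 against 11.85, ratio 0.850).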

How the results depend on the processing

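With array weights 21 member genes passed an adjusted p of 0.05, where 43.5% of all probes did, and 32 member probes an unadjusted one (52.3% of all probes), with 25 other cell cycle and 10 p53 pathway genes and a relative member median of -0.13. The replicate block, which pairs the same embryo numbers, gave 5 member genes (11.1% of all probes), 22 member probes (34.9% of all probes), 18 other cell cycle genes and 7 p53 pathway genes. Of the other genes named with values above, Tbx5, Tfdp2, Fbxw7, Ttk, Cdkn1c and Pmaip1 also passed an adjusted p of 0.05 with that block. SAM called 0 member genes with the mean number of false calls and 8 with its median (29.4% of 34 probes; 26.6% of all), an alternative chosen after seeing the data. The methods' t-test gave 8 member probes unadjusted, given here without the share of all probes, and 0 genes after Benjamini-Hochberg. Member probes without overlap numbered 7 under percentile scaling (2 lower), 6 with centred arrays (0 lower) and 1 with probes above background on all 8 arrays. The share of all probes without overlap is not given for these settings or with 1 array left out. Such counts are therefore not read as a result about the members. Other cell cycle genes numbered 7 under quantile normalization and under the methods' filter. The relative member median was -0.20 without a filter on dim probes and 0.010 under the methods' filter. Leaving out 1 array gave 0 to 10 member genes, 6 to 28 member probes, 3 to 22 without overlap, 7 to 21 other cell cycle and 2 to 9 p53 pathway genes, and a relative member median of -0.12 to 0.039; the 10 genes and 28 probes came without Tbx5-/+ 1, where 19.2% of all probes passed an adjusted and 41.8% an unadjusted p of 0.05, and the 6 probes without wild-type 7 (11.1% of all). Signs turned for Ccnd1 (0.14 under percentile, 0.095 centred), Ccna2 (0.047 under percentile), Ccnb1 (0.26, 0.015 and 0.22 under percentile, quantile and centred) and the brighter E2f1 probe (0.042 and 0.011 under percentile and centred). Cdkn1b ranged from -0.17 to 0.28 with 1 array left out, negative (-0.16, -0.17, -0.15 and -0.16) without Tbx5-/+ 6, Tbx5-/+ 7, wild-type 1 or wild-type 5, and the mean of the tested probes turned Ccne1 to -0.012 and E2f7 to -0.28. The cause of these changes was not tested.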
